A study of Anas platyrhynchos x Cairina moschata with 205 samples.

Results

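Livers of mule duck embryos (a cross of Anas platyrhynchos with Cairina moschata) whose eggs had been thermally manipulated (TM) were compared with those of the control group at E16, the 16th embryonic day. These were 13 of the 205 livers measured, 8 TM livers and 5 control livers (replicates 1, 2, 3, 4 and 7), all from the second of 2 trials. TM eggs had been incubated at a temperature raised by 1 °C for 16 h of each day, which had begun 3 days before sampling, and the livers were taken 1 h after the daily rise. Control eggs stayed at a constant temperature in a separate incubator. Each group came from 1 incubator, so temperature and incubator cannot be told apart. Each liver was a separate embryo, and expression had been measured in liver tissue by high-throughput quantitative PCR. Of the 88 assayed genes that were not reference genes, 82 had a value in at least 6 TM and 4 control livers and were tested. ChREBP, SCD1, FABP4, HDAC1, PPARG and TLR4 had too few values. The values below are log2 of the relative expression ratio, so that a difference of 1 is a doubling and corresponds to 1 PCR cycle, and 0 is the average over the livers of the trial. A gene was called modulated when the difference of the group means had an unadjusted p under 0.05 in an exact permutation test (two-sided).

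The bird embryo is fuelled mainly by yolk lipid, which its liver takes up, stores and oxidises. Fatty acids are carried into mitochondria by CPT1 and oxidised there, or they are esterified with glycerol into triglycerides by enzymes such as GPAT1 and DGAT2, and new fatty acids are made from acetyl-CoA by ACC and FASN. The nuclear receptor PPARA drives transcription of the oxidation genes and LXRA that of the synthesis genes. Thyroid hormone, which sets heat production and metabolic rate, is inactivated by DIO3, and without hormone its receptors are held silent by corepressors such as NCOR. Heat shock proteins, under the control of the HSF factors, refold damaged proteins after a rise in temperature.

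Some livers stood apart. In control replicate 7, luciferase, the RNA added to each sample before reverse transcription, was the only one of the 4 reference genes (HPRT1, luciferase, STAB1 and USP9X) that gave a Ct (the number of PCR cycles until the product is detected). This liver had a ratio for 20 of the 81 genes kept by the study and a median Ct of 23.6 cycles, whereas the TM livers had 63 to 81 ratios and a median Ct of 18.8 to 19.5 cycles, and the other control livers 76 to 81 ratios and 18.7 to 19.6 cycles. Luciferase itself had 22.7 cycles there, within the range of the TM livers (21.1 to 24.2). Control replicate 3 had the highest luciferase Ct of its group (23.2 cycles), and its median log2 ratio over the genes tested was 0.40, against −0.49 to −0.09 in control replicates 1, 2 and 4. TM replicates 5 and 8 had still later luciferase (24.0 and 24.2 cycles) and the highest medians of all livers (0.88 and 0.57). The medians of the TM livers ran from −0.04 to 0.88. For 26 values of the genes tested a Ct was deposited without a ratio, of which 22 were in TM livers (16 of them in TM replicate 5) and 4 in control livers. Recomputed from the Ct, all 26 lay above every ratio kept for that gene in its group. The effect of control replicate 7 and of the blanks is given beside a named gene where it changed a call or moved the difference by over 1.5 times.

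At E16, 14 of the 82 genes were modulated (17.1%), all 14 higher in the TM group and none lower. Among them were CPT1 of fatty acid oxidation, ACC, GPAT1, DGAT2 and CEPT1 of lipid synthesis, the receptor PPARA, DIO3, NCOR, JMJD1C and ALB of the thyroid hormone list, and ATF4 and GAPDH of the carbohydrate list. Of the 82 differences, 68 were above 0, and the median difference was 0.55. No gene passed after the Benjamini-Hochberg correction in limma (0 of 82, smallest adjusted p = 0.166), where 16 passed with an unadjusted p, nor with the same correction of the permutation test (smallest adjusted p = 0.138). Without control replicate 7, 14 genes were again modulated (17.1%), all higher in the TM group, with a median difference of 0.48. Of these, 12 were among the 14 above. JMJD1C was among the genes lost, and HSF1 and TIA1 were gained.

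**Figure D1:**
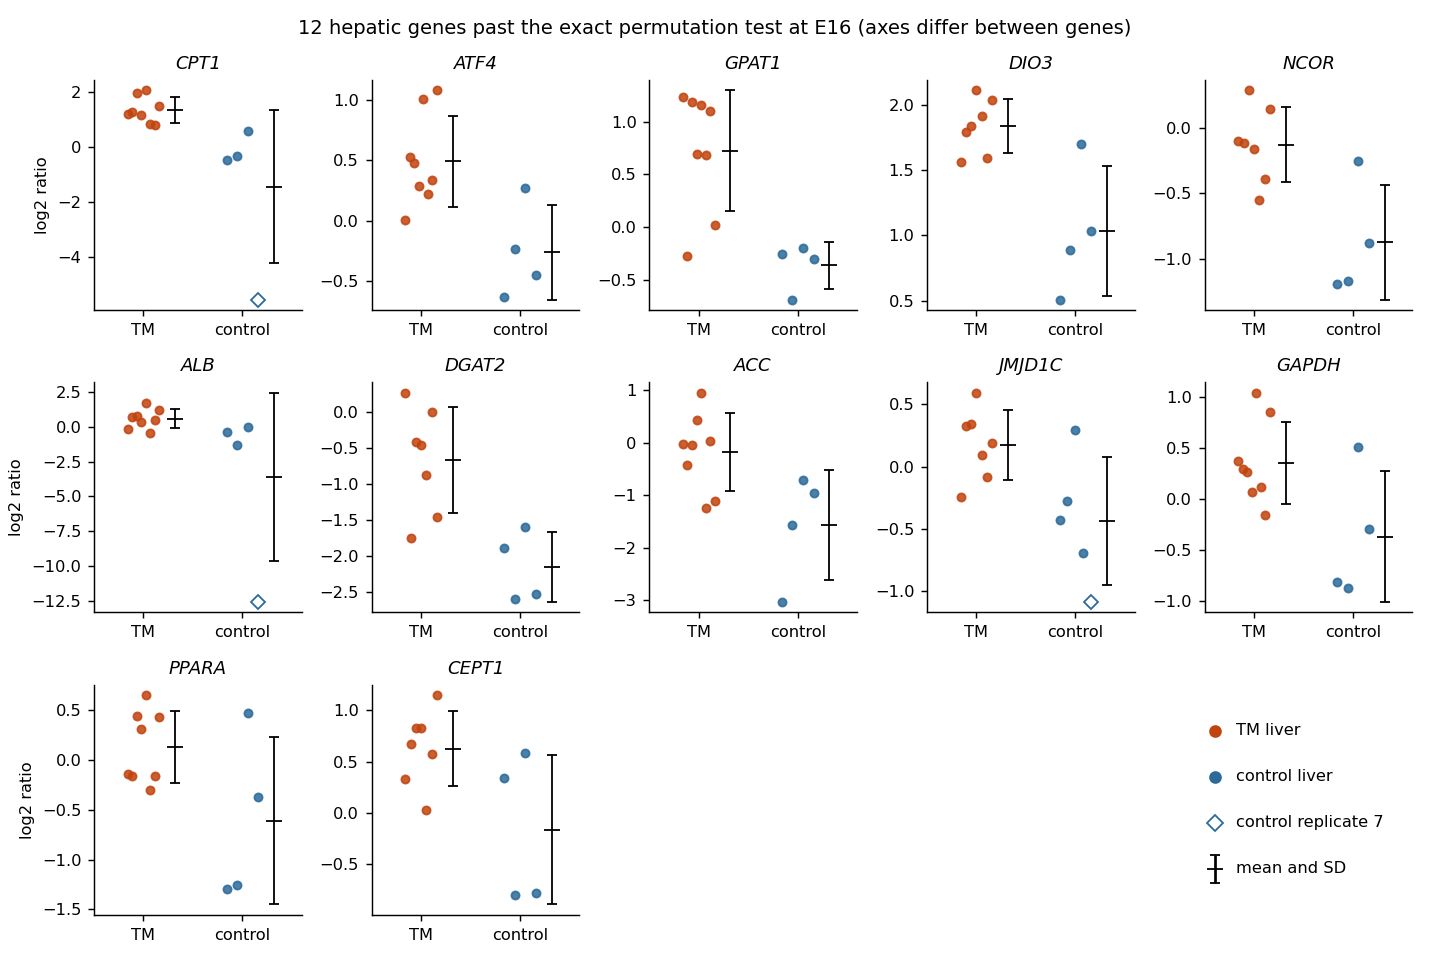
Log2 ratio (vertical axis, a separate scale for each gene) of 12 of the genes called at E16, in TM livers (left, red) and control livers (right, blue), with the mean and SD beside each group and control replicate 7 as an open diamond. In CPT1 the lowest TM liver, at 0.82, lies above the highest control liver with a ratio, at 0.57, while in the other 11 genes the groups overlap, and in CPT1 and ALB control replicate 7 lies far below the rest.

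All 8 genes of lipid oxidation had a difference above 0, with a median of 0.91. Over all 82 genes tested, 68 differences were above 0, with a median of 0.55. CPT1 (carnitine palmitoyltransferase, described in the files as the 1A form), the rate-limiting step of fatty acid entry into mitochondria, was between 0.82 and 2.08 in the 8 TM livers (median 1.25). The control livers had −0.46, −0.34, 0.57 and, in replicate 7, −5.56. The groups did not overlap, the only gene of the 82 for which this was so (1.22%). The mean was 1.35 ± 0.47 in TM livers (SD, n = 8) and −1.44 ± 2.78 in control livers (n = 4) (exact permutation p = 0.00202, the smallest that these numbers of livers allow). Much of the difference of 2.80 came from replicate 7, and without it the control group was at −0.07 ± 0.56 (n = 3), a difference of 1.43 or 2.69-fold (exact permutation p = 0.00606). Control replicate 3 had a Ct for CPT1 but no ratio. Its value from the Ct was 1.77, inside the range of the TM livers, and with all Ct and without replicate 7 the difference was 0.97 (exact permutation p = 0.0444) and the groups overlapped.

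ACAT1, which joins or splits acetyl-CoA units, was at 1.65 ± 0.66 in TM livers and 0.52 ± 1.34 in control livers and did not pass (exact permutation p = 0.0707). ACSL1, ACAA2, ACAD11, ALDH3A2 and ALDH7A1 differed by 0.43 to 1.07 and did not pass. The largest of these, ACAD11, differed by 0.60 without control replicate 7 and by 0.25 with all Ct and without that liver, and ACAA2 by 0.68 with all Ct.

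In lipid synthesis, 4 of the 9 genes tested were modulated and all 9 differences were above 0, with a median of 0.79. Over all genes tested, 14 of 82 (17.1%) were modulated and 68 differences were above 0, with a median of 0.55. DGAT2, which adds the third fatty acid to make triglyceride, was between −1.74 and 0.27 in the 7 TM livers with a ratio (median −0.45). In the control livers it was at −2.59, −2.52, −1.88 and −1.59. A single TM liver, replicate 2, fell within the control range. The mean was −0.66 ± 0.74 in TM livers (n = 7) and −2.15 ± 0.49 in control livers (n = 4), a 2.79-fold difference (exact permutation p = 0.0121). TM replicate 5 had a Ct but no ratio, and its value from the Ct was 2.17, the highest of the TM group.

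GPAT1, which starts the synthesis of glycerolipids, was between −0.28 and 1.24 in TM livers (median 0.89), while the 4 control livers lay close together at −0.69, −0.30, −0.26 and −0.20. All TM livers other than replicate 2 were above every control liver. The difference was 1.09 or 2.12-fold (exact permutation p = 0.00808). ACC, which commits acetyl-CoA to fatty acid synthesis, was between −1.24 and 0.95 in TM livers (median −0.04) and at −3.04, −1.57, −0.95 and −0.72 in control livers, with TM replicates 6 and 8 inside the control range. The difference was 1.39 or 2.62-fold (exact permutation p = 0.0202), and it was 0.90 and did not pass without control replicate 1, the lowest liver (exact permutation p = 0.0848). CEPT1, which makes the membrane phospholipids phosphatidylcholine and phosphatidylethanolamine, was between 0.03 and 1.15 in TM livers and at −0.80, −0.78, 0.35 and 0.58 in control livers, with control replicates 2 and 4 below every TM liver and replicates 1 and 3 among them. The difference was 0.79 (exact permutation p = 0.0424), and it passed in 6 of the 13 sets with 1 liver left out, but not without TM replicate 2, 3, 4, 7 or 8 or control replicate 2 or 4 (0.58 at the least, largest exact permutation p = 0.125). TM replicate 5 and control replicate 7 had no ratio for CEPT1, so the passing sets without them only repeated the full test. FASN, the fatty acid synthase, was at −0.89 ± 0.60 in TM livers (n = 8) and −1.90 ± 1.30 in control livers (n = 5), which did not pass (exact permutation p = 0.0606). Its difference of 1.00 included control replicate 7 and was 0.46 without it (exact permutation p = 0.222). ACLY, ME, ELOVL6 and ACSS differed by 0.26 to 0.65 and did not pass.

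In lipid transport and storage, APOB, the protein of secreted lipoproteins, differed by 0.82 (exact permutation p = 0.0545), and the lipase LIPC by 0.72, the lipid droplet protein PLIN2 by 0.60 and the lipoprotein receptor VLDR by 0.45, none of which passed. With all Ct, LIPC differed by 0.85 and passed (exact permutation p = 0.0485). Without control replicate 7, PLIN2 differed by 0.14 (0.33 with all Ct) and VLDR by 0.90, again without passing (exact permutation p = 0.664 and 0.188 for the ratios).

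PPARA, the regulator of fatty acid oxidation, was between −0.30 and 0.65 in TM livers and at −1.29, −1.26, −0.37 and 0.47 in control livers. Replicate 3 was the one control liver inside the TM range. The difference was 0.74 (exact permutation p = 0.0404), and it passed in 6 of the 13 sets with 1 liver left out, but not without TM replicate 3, 4, 5 or 8 or control replicate 1, 2 or 4 (0.52 at the least, largest exact permutation p = 0.152). Control replicate 7 had no ratio for PPARA, so the passing set without it only repeated the full test. LXRA was at 0.23 ± 0.48 in TM livers (n = 8) and −0.34 ± 0.25 in control livers (n = 4), which did not pass (exact permutation p = 0.0545).

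Of the 8 genes of the thyroid hormone list, 4 were modulated, with a median difference of 0.77, against 14 of all 82 genes (17.1%) with a median of 0.55. DIO3, the deiodinase that inactivates thyroid hormone, was between 1.56 and 2.11 in the 7 TM livers with a ratio (median 1.83). It was at 0.51, 0.89, 1.04 and 1.70 in control livers, of which replicate 3 reached the TM range. The mean was 1.83 ± 0.21 in TM livers (n = 7) and 1.03 ± 0.50 in control livers (n = 4), a 1.74-fold difference (exact permutation p = 0.00909). NCOR, the corepressor of thyroid hormone receptors, was between −0.55 and 0.29 in TM livers (median −0.12) and at −1.19, −1.17, −0.87 and −0.26 in control livers, again with replicate 3 inside the TM range. Its difference was 0.75 or 1.68-fold (exact permutation p = 0.00909). JMJD1C, a demethylase-like coactivator of nuclear receptors, was 0.61 higher in the TM group (exact permutation p = 0.0215), or 0.45 without control replicate 7 and 0.55 without control replicate 4, which did not pass (exact permutation p = 0.0606 and 0.0545).

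ALB, albumin, which also carries thyroid hormone in the blood and was the most abundant transcript of the panel by Ct, was between −0.42 and 1.70 in TM livers (median 0.59). The control livers had −1.31, −0.41, −0.02 and, in replicate 7, −12.56. The fitted difference of 4.15 was therefore set by 1 liver, and it was 1.15 without it (exact permutation p = 0.0485, n = 3 control livers). With all Ct, which returns a value of 1.13 for control replicate 3, and without replicate 7, it was 0.73 and did not pass (exact permutation p = 0.164). The other 4 genes of the list did not pass. THRB, the beta receptor, differed by 0.88, SLC16A10, a thyroid hormone transporter, by 0.81, and DIO1, which activates the hormone, by 0.75, whereas USP16, a ubiquitin protease, was at −0.56 ± 1.42 in TM livers and −0.07 ± 0.71 in control livers.

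In the carbohydrate lists, 2 of 10 genes were modulated, a share near the 17.1% over all genes. ATF4 (labelled CREB2/ATF4) is a transcription factor of amino acid and stress responses that the study placed with carbohydrate oxidation. The assay is described as activating transcription factor 2, so its identity as ATF4 rests on the label. ATF4 was between 0.00 and 1.08 in TM livers (median 0.41). It was at −0.63, −0.45, −0.24 and 0.27 in control livers, with replicate 3 the one above 0. The difference was 0.76 or 1.69-fold (exact permutation p = 0.00808). GAPDH, the glycolytic dehydrogenase, differed by 0.72 (exact permutation p = 0.0404). It passed in 5 of the 13 sets with 1 liver left out, but not without TM replicate 1, 2, 3, 5 or 8 or control replicate 1, 2 or 4 (0.55 at the least, largest exact permutation p = 0.121). Control replicate 7 had no ratio for GAPDH, so the passing set without it only repeated the full test. GLUT2, the hepatic glucose transporter, differed by 1.12 (exact permutation p = 0.0545) and GLUT3 by 1.25 (exact permutation p = 0.107), which did not pass. GLUT1 differed by −0.25, also without passing. TM replicate 6 had a Ct for GLUT1 but no ratio (2.78 from the Ct, above every TM ratio kept). HK1, a hexokinase, had the most negative difference of all genes tested. It was between −2.40 and 1.56 in TM livers (median −0.75) and at −0.31, 0.82, 1.20 and 1.36 in control livers, a difference of −1.38 that did not pass (exact permutation p = 0.0909). HK2 differed by −0.84 (exact permutation p = 0.731), and TM replicate 7 stood at −7.83 against −1.40 to 2.34 in the other TM livers. Without that liver the difference of HK2 was 0.22, so that its sign rested on 1 liver.

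None of the 22 genes of cellular stress was modulated, against 14 of all 82 genes (17.1%). The median difference of the stress genes was 0.22, and that of all genes 0.55. In the heat shock list, with 12 genes and a median of 0.20, HSP90AA1, the cytosolic chaperone, was at 0.32 ± 0.55 in TM livers and −0.30 ± 0.42 in control livers (exact permutation p = 0.0808). HSPA5, the chaperone of the endoplasmic reticulum, differed by 0.10 (exact permutation p = 0.648), or 0.25 with all Ct. HSPA2 differed by 0.91 (exact permutation p = 0.406), or 0.48 without control replicate 7 (exact permutation p = 0.673), and HSBP1, which binds HSF1, by −0.22. HSF1, a heat shock factor, was between −1.29 and 1.59 in TM livers (median 0.94) and at −3.17, −1.32, 0.31 and 0.87 in control livers. Its highest control value was that of replicate 7, and without it the difference was 1.94 and passed (exact permutation p = 0.0417, n = 3 control livers). This was the 1 set of 13 with 1 liver left out in which HSF1 passed. Without control replicate 3, at −3.17, its difference was 0.59 (exact permutation p = 0.475). The factors HSF2 and HSF3 did not pass. HSF3 was between −1.11 and 1.08 in TM livers and at −0.74, −0.18, −0.10 and 1.62 in control livers. HSF2 was between −0.33 and 1.38 in TM livers and at −0.25, 0.96, 1.14 and 1.15 in control livers. TIA1, an RNA-binding protein of stress granules, differed by 0.32 and did not pass (exact permutation p = 0.0543). It passed without control replicate 7 (0.36, exact permutation p = 0.0485) and with all Ct (0.42, exact permutation p = 0.0451). With both changes it did not pass (0.46, exact permutation p = 0.0566). IL18, an inflammatory cytokine, differed by −1.12 without passing (exact permutation p = 0.206), with control replicate 3 at 3.03 and the other control livers between −0.81 and −0.32. Its difference was −0.21 without control replicate 3 (exact permutation p = 0.758). TM replicate 2 and control replicate 7 had a Ct for IL18 but no ratio (2.58 and 7.04 from the Ct), and the difference was −2.05 with all Ct and −0.70 with all Ct and without replicate 7. The 6 autophagy genes differed by −0.02 to 0.70.

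None of the 15 genes of proliferation and epigenetics was modulated either, with a median difference of 0.23. They ran from SIRT1, a histone deacetylase, at −0.31 (exact permutation p = 0.248) to TUBa1C, a tubulin, at 1.06 (exact permutation p = 0.0870), or 0.38 without control replicate 7. Over the broader groups, 10 of 34 genes of energy metabolism were called (median difference 0.72), of which 7 were among 22 lipid genes (0.80). Over all 82 genes, 14 were called (17.1%), with a median of 0.55. Without control replicate 7, 9 genes of energy metabolism (0.69), 6 lipid genes (0.75) and 3 of the thyroid hormone list (0.75) were called. The count for cellular stress was then 2 (0.31), and that for all genes 14 (0.48). The medians of lipid oxidation and lipid synthesis were 0.73 and 0.65 without that liver.

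**Figure D2:**
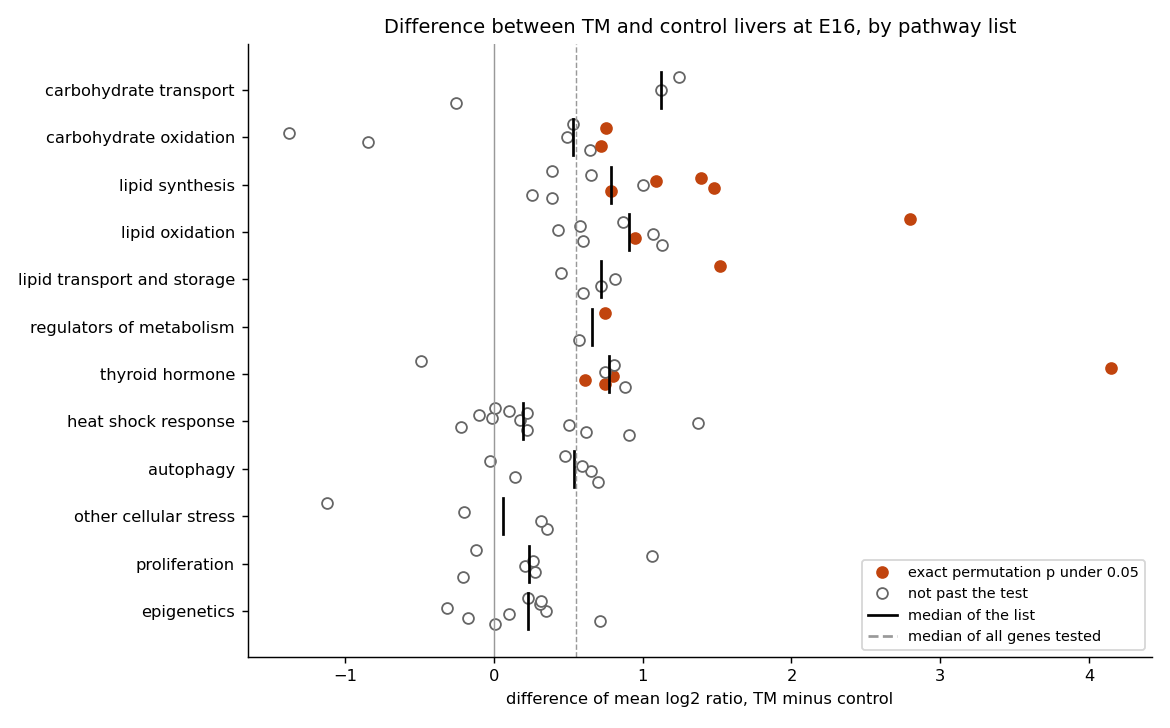
Difference of the mean log2 ratio, TM minus control (horizontal axis), for the genes tested at E16, grouped by the 12 pathway lists (1 row each), with filled red points for genes past the exact permutation test and a black bar at the median of each list. The dashed line marks the median of all genes tested, 0.55, and the 14 called genes lie in 6 of the lists, all to the right of 0.

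The cell composition of the liver was followed with the markers on the panel. Among the hepatocyte markers, ALB was modulated as above, APOB differed by 0.82 without passing, CYP2C (which the files describe as a member of the 2E family) by 0.36 (exact permutation p = 0.436), and HNF4 by −0.21 (exact permutation p = 0.459). Of the markers of non-parenchymal cells, HGF differed by 0.26 (exact permutation p = 0.796) and TGFb1 by 0.21 (exact permutation p = 0.791). When 1 liver was left out they ran from −0.72 to 0.88 and from −0.26 to 0.58, so that neither had a settled sign. Without control replicate 7, TGFb1 differed by 0.56 and again did not pass (exact permutation p = 0.458). STAB1 served as a reference gene. The part of cell composition in the modulated genes was not tested, and in liver tissue fewer cells of a type and less RNA per cell cannot be told apart.

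None of the 4 reference genes passed the test between the groups on its Ct. HPRT1, an enzyme of purine salvage, had a Ct of 20.5 to 22.5 cycles in TM livers (median 21.3) and of 19.2, 19.2, 20.3 and 21.9 in control livers. Its mean was later in the TM group by 1.29 cycles (exact permutation p = 0.0566), or by 1.87 cycles without control replicate 1, which passed (exact permutation p = 0.0121). Luciferase was later by 0.47 cycles (exact permutation p = 0.454) and STAB1, a scavenger receptor of sinusoidal endothelium described in the files as Stabilin 2, by 0.31 (exact permutation p = 0.246). USP9X, a ubiquitin protease, was earlier by 0.09 cycles (exact permutation p = 0.808). A later reference gene raises every ratio of the liver. The mean of the reference genes with a Ct was 0.15 cycles earlier in the TM group (exact permutation p = 0.844). Without control replicate 7 it was 0.51 cycles later (exact permutation p = 0.152). The median difference over the genes tested was 0.48 without that liver. The median Ct of the 81 genes averaged 19.08 cycles in TM livers and 19.00 in control livers other than replicate 7.

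**Figure D3:**
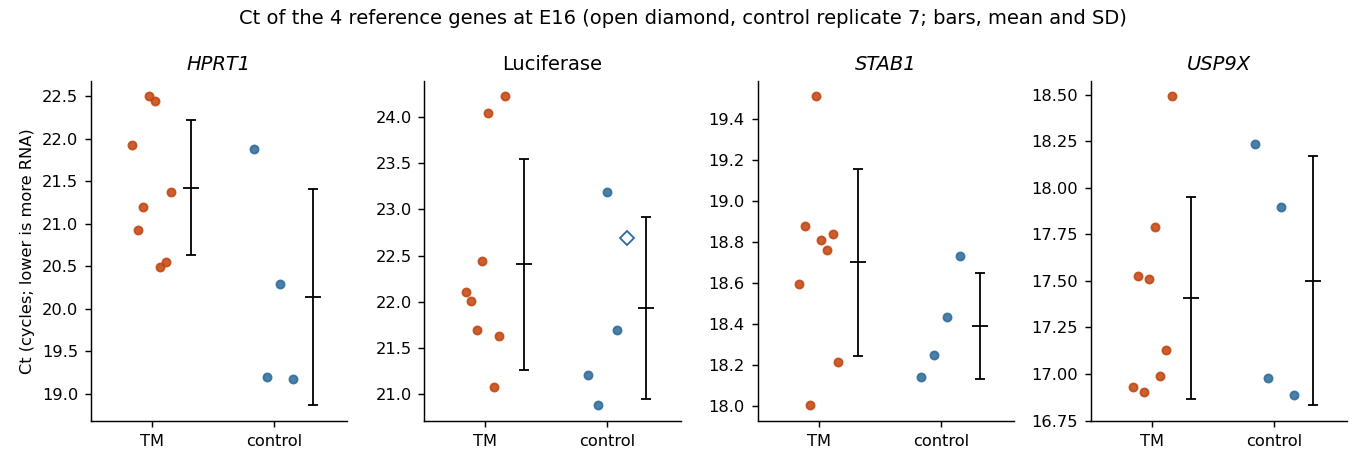
Ct in cycles (vertical axis, a separate scale for each gene, lower for more RNA) of the 4 reference genes in TM livers (left, red) and control livers (right, blue) at E16, with the mean and SD of each group. HPRT1 is at 19.2 to 20.3 cycles in 3 of the 4 control livers and at 20.5 or more in every TM liver, and control replicate 7 (open diamond) has a Ct for luciferase alone.

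The number of modulated genes changed with the reference. Against luciferase, STAB1 and USP9X, without HPRT1, 5 of 82 genes were called (6.1%), all higher in the TM group (CPT1, GPAT1, DGAT2, ACC and ALB), and the median difference was 0.30. Without control replicate 7 as well, 4 were called (CPT1, GPAT1, DGAT2 and ACC), with a median of 0.24. HPRT1, STAB1 and USP9X had no Ct in replicate 7, so that leaving out luciferase leaves out this liver too. Against these 3, 18 genes were called, all higher, next to the 14 called without that liver against all 4 reference genes. When control replicate 7 was left out and each liver was centred on the 52 panel genes with a value in every remaining liver, the median difference was 0.03 and 8 genes were called (9.76%). Of these, 5 were higher in the TM group (6.1% of the genes tested) and 3 lower (3.66%). CPT1 (0.80, exact permutation p = 0.00606), DGAT2 (1.11, p = 0.0394 in the same exact test), ACC (0.94, exact p = 0.0485), DIO3 (0.43, exact p = 0.0333) and NCOR (0.37, exact p = 0.0394) were higher. HK1 (−1.88, exact permutation p = 0.0333), IL18 (−1.58, exact p = 0.0273) and SIRT1 (−0.76, exact p = 0.0202) were lower. HK1 in TM replicate 6 and IL18 in TM replicate 2 had a Ct but no ratio (2.32 and 2.58 from the Ct). Both values lay above every ratio kept in TM livers. With all Ct, without replicate 7 and against the 4 reference genes, HK1 differed by −1.01 and IL18 by −0.70. Neither passed (exact permutation p = 0.265 and 0.519). The same 8 genes and GPAT1 were called against STAB1, USP9X, ActB and EIF3 without that liver, with the same directions. Set against a single reference gene and without replicate 7, the median difference was 1.25 for HPRT1, 0.58 for luciferase, 0.31 for STAB1 and −0.11 for USP9X, with 40, 3, 7 and 7 genes called. With replicate 7 kept, which luciferase alone allows, it was 0.77 with 5 genes. CPT1 and DGAT2 were called and higher under each of these references. All of them used the kept ratios, so that control replicate 3 had no value for CPT1 or ALB. Without replicate 7 this left 3 control livers for CPT1. The value of control replicate 3 from its Ct, 1.77 against the 4 reference genes, lay inside the range of the TM livers. CPT1, HK1 and IL18 with all Ct were not tested under the other references. With replicate 7 kept, centring on the 11 panel genes with a value in every liver called 4 genes, CPT1 and ALB higher and HK1 and SIRT1 lower. By group, the count for energy metabolism, 10 against all 4 reference genes, was 4 without HPRT1, and 3 higher and 1 lower after centring without replicate 7 (median 0.24). For the lipid genes, 7 became 4 without HPRT1 and 3 after centring (0.36). The count for the thyroid hormone list was 1 without HPRT1 (ALB, with replicate 7 kept) and 2 after centring (0.33). ALB was not called without both HPRT1 and replicate 7. The count for the carbohydrate lists was 0 without HPRT1 and 1, lower, after centring.

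**Figure D4:**
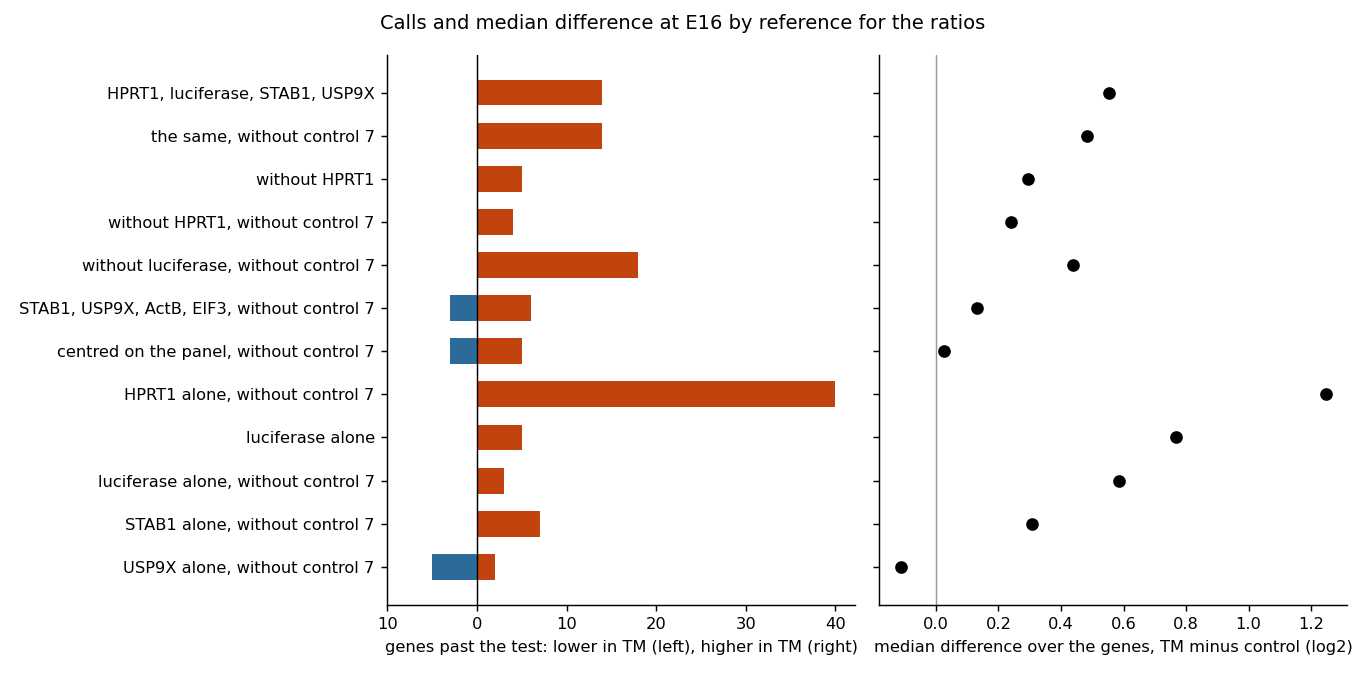
Genes past the exact permutation test (left, bars to the right of 0 for genes higher in TM livers and to the left for genes lower) and the median difference over the genes tested (right, log2, TM minus control) for 12 ways of referring the values, 1 per row. HPRT1 alone gives 40 calls, all higher, and USP9X alone 2 higher and 5 lower, both without control replicate 7.

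Control replicate 3 was close to the TM livers in most genes called. Leaving out such a liver widens the differences of these genes, so the counts without it are no test of the TM effect. Without replicate 3, 26 genes were called (31.7%), all higher, and 19 passed limma's adjusted p (23.2%). These 19 were 13 of the 14 genes above (all other than ALB) together with APOB, GLUT2, LIPC, ACAT1, ENO1 and ACSL1. With both replicates 3 and 7 left out, 23 genes were called and 14 passed the adjusted p. When control replicate 1, 2 or 4 was left out instead, 11, 13 and 12 genes were called, and 0 passed the adjusted p in each case.

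The TM effect was then set beside those at E12, E20 and E24, other embryonic points of the same trial. E12 comes before the temperature rise in the timeline of the study (although the sample labels place it after a rise), and E20 and E24 during it. Livers of E28 were not compared. At E12, 6 of the 81 genes tested there were modulated (7.41%), at E20 8 of 78 (10.3%) and at E24 7 of 78 (8.97%). Of the genes modulated at E16, none was at E12 (13 tested), 1 was at E20 and 1 at E24. DIO3 was the one at E24, at 1.83 ± 0.45 in TM livers and 1.27 ± 0.55 in control livers (n = 8 each, exact permutation p = 0.0406). Over the genes modulated at E16 the median difference was 0.12 at E12, 0.87 at E16, 0.07 at E20 and 0.08 at E24, the value at E16 being fixed by the choice of genes, and over all genes tested it was 0.19, 0.55, 0.08 and 0.07.

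CPT1 in TM livers was at 1.38 ± 0.49 at E12 (n = 7), 1.35 ± 0.47 at E16 (n = 8), 0.36 ± 0.30 at E20 (n = 7) and −0.66 ± 0.27 at E24 (n = 7). In control livers it was at 1.26 ± 0.69 at E12, −1.44 ± 2.78 at E16, or −0.07 ± 0.56 without replicate 7, 0.21 ± 0.39 at E20 and −0.77 ± 0.80 at E24 (n = 8 at the other 3 points). It was the 1 gene of 82 (1.22%) whose TM effect differed between E16 and E12 in limma, by 2.68 (adjusted p = 0.0191), and likewise for E20, by 2.64 (adjusted p = 0.0229), and E24, by 2.69 (adjusted p = 0.0178). These calls were lost without control replicate 7 and the TM liver of E20 that also had luciferase alone. The differences for CPT1 were then 1.31, 1.27 and 1.32 and no gene passed (smallest limma adjusted p = 0.171, 0.192 and 0.218, with 8 genes at an unadjusted p under 0.05 in each). No gene passed at any of the 3 points with all deposited Ct or without HPRT1 either. For the other 13 genes the change of the effect between E16 and the other points did not pass. HPRT1, which was later by 1.29 cycles in TM livers at E16, was earlier by 0.86 cycles at E12 (exact permutation p = 0.0362).

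**Figure D5:**
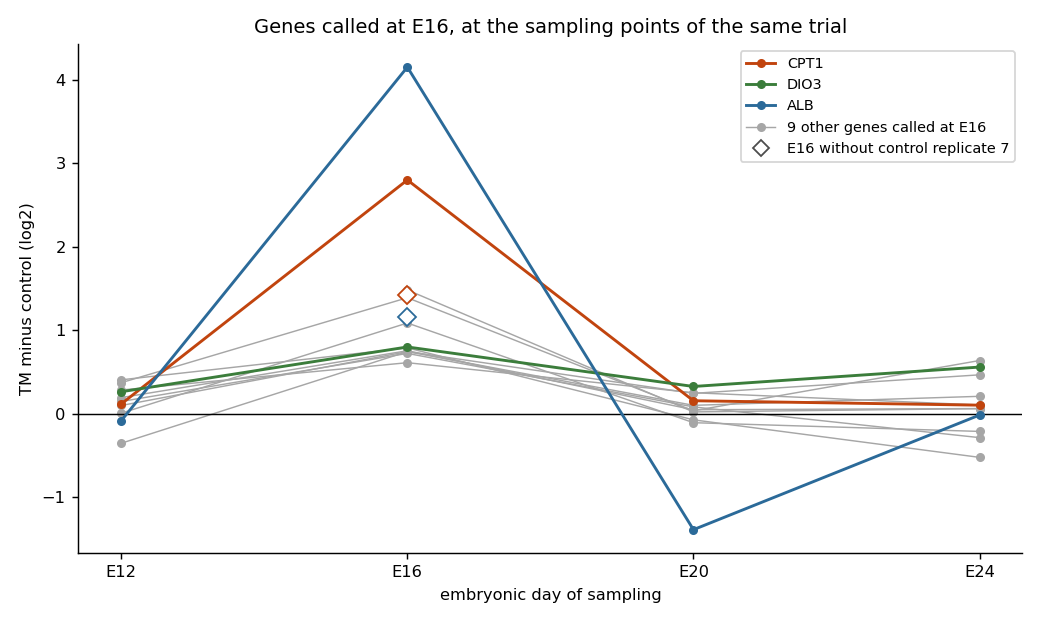
Difference of the mean log2 ratio, TM minus control (vertical axis), of 12 of the genes called at E16, at E12, E16, E20 and E24 (horizontal axis), with CPT1, ALB and DIO3 in colour and open diamonds for CPT1 and ALB at E16 without control replicate 7. All 12 lie above 0 at E16, where they were chosen, and DIO3 at E24 is the only other point of these genes past the test.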

How the data were processed

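Relative expression ratios were used as deposited by the authors for 13 livers of E16 and for those of E12, E20 and E24. The authors had computed 2 to the power of −ΔΔCt against the geometric mean Ct of HPRT1, luciferase, STAB1 and USP9X, as far as these had a Ct in the liver, and the average ΔCt of the gene over the trial. Recomputing them from the deposited Ct score (cycles exported from the instrument) gave all 7969 ratios of the second trial within 0.001 on the log2 scale. R 3.6.2 is named in the submitters' processing notes. Why a Ct was left without a ratio is not given in the sources used here. Per the labels, each column was mapped to its sample, and none was left over.

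The ratios were log2-transformed, and no pseudocount was needed. At E16 a gene was tested with at least 6 TM and 4 control livers, and at E12, E20 and E24 with at least 6 of each group. Most alternatives at E16 kept a gene with at least 5 TM and 3 control livers. The difference of the group means was tested by exact permutation over every split of the livers (two-sided, unadjusted threshold 0.05, as in the study) and by limma (empirical Bayes, Benjamini-Hochberg over the 82 genes). Interactions were contrasts in 1 limma fit of 61 livers. Replicates were separate livers, but each group came from 1 incubator, so that p-values measure the spread between livers. Precision is limited by the number of livers, since no read counts exist.

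The genes named are those called in either version of the test, those the study tabulates at E16, the 5 with the most negative difference and the marker genes; others illustrate a list. The values of 2 of the genes called are not reported here. The livers, genes and lists were chosen with earlier results of these data known. The alternatives were other reference genes, centring of each liver, all deposited Ct, other gene filters, 1 fit over the trial, the replicate block and leaving out livers. Those on HPRT1, on single reference genes, on STAB1 with USP9X, ActB and EIF3, on control replicates 3 and 7 together and on all Ct or other references without replicate 7 were added after seeing the data. limma and the permutation test were tested on simulated data. Python 3.11.15, numpy 2.4.6, pandas 2.3.3, scipy 1.17.1, matplotlib 3.10.9, R 4.3.3 and limma 3.58.1 were used.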

Additional observations from a re-analysis of the deposited data

Results flagged for a closer look

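Over the genes named, 64 groups of 4 to 8 livers were examined for a liver far from the rest, and 4 had one by Dixon's criterion, which chance alone meets in about 1 group of 20. In control replicate 7, CPT1 was at −5.56 with the nearest control liver at −0.46, and ALB was at −12.56 with the nearest at −1.31. This liver has luciferase alone among the reference genes. In control replicate 3, IL18 was at 3.03 with the nearest control liver at −0.32, and in TM replicate 7, HK2 was at −7.83 with the nearest TM liver at −1.40.

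The TM effect on CPT1 at E16 differed from that at E12 by 2.68, at E20 by 2.64 and at E24 by 2.69 in the interaction test of limma (adjusted p = 0.0191, 0.0229 and 0.0178). Without the 2 livers that have luciferase alone, none of the 3 differences passed (1.31, 1.27 and 1.32).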

How the results depend on the processing

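The number of genes modulated at E16 changed with the reference genes and with single livers. Against the main count of 14 by the exact permutation test, it was 4 with each liver centred on the panel (8 without control replicate 7), 5 without HPRT1 (4 without control replicate 7), 9 with STAB1, USP9X, ActB and EIF3 and without control replicate 7, 5 with luciferase alone, 40, 3, 7 and 7 with HPRT1, luciferase, STAB1 and USP9X alone and without control replicate 7, and 23 without control replicates 3 and 7. Leaving out 1 liver at a time gave 11 to 26 genes, the highest without control replicate 3. For limma's adjusted p, where no gene passed, this range was 0 to 19, with 2 genes without TM replicate 2 and 19 without control replicate 3, while 14 passed without control replicates 3 and 7 and 3 in 1 fit over the second trial. The median difference of 0.55 was 0.0348 after centring (0.0266 without control replicate 7), 1.25 with HPRT1 alone and −0.11 with USP9X alone, both without control replicate 7. The difference of JMJD1C was −0.0028 after centring. The causes were not tested.

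The methods' Student or Wilcoxon test called 12 genes, all among the 14, and none after Benjamini-Hochberg. All deposited Ct gave 16 genes, or 13 without control replicate 7. When 1 liver was left out, genes not called that passed included LXRA without TM replicate 2 or 7 or control replicate 1 (0.65, 0.65 and 0.68), HSP90AA1 without TM replicate 3 (0.76), HK1 without TM replicate 4 (−1.74), APOB without TM replicate 6 or control replicate 3 (0.93 and 1.14), TIA1 without control replicate 4 or 7 (0.41 and 0.36), ACAT1, GLUT2 and THRB without TM replicate 6, FASN and ACSL1 without TM replicate 7, and TUBa1C without TM replicate 4.

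The count of 1 gene whose effect differed from that at E12, E20 or E24 was 0 without the 2 livers with luciferase alone, with all deposited Ct and without HPRT1, and at E24 also 0 after centring. HPRT1 was later in TM livers by 0.97 to 1.87 cycles when 1 liver was left out, and passed without TM replicate 6 (1.42) or 7 (1.41) or control replicate 1 (1.87).

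With the replicate block in limma 0 genes passed the adjusted p (smallest 0.407) and 7 an unadjusted p, instead of 16, and CPT1 stayed the 1 gene that differed from each other point. Deviations of same-numbered livers correlated at −0.20, −0.20, 0.42, 0.10 and 0.09 for replicates 1, 2, 3, 4 and 7. The labels give only a shared number, and these correlations cannot settle whether the livers were paired. A blocked permutation test was not run, since 5 pairs cannot pass.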
